A study of Mus musculus with 4 samples.

Results

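The 8 complement genes C1qa, C1qb, C1qc, C3, Cfp, Cfb, C3ar1 and C5ar1 were followed through single-cell RNA libraries of mouse bone marrow. They were chosen by name as a list of complement components and receptors, out of 31053 genes in the matrices. Red cell-depleted marrow of femur and tibia from C57/B6 mice labelled 12 months old was profiled by 10x Genomics 3′ sequencing, 1 library per genotype, in which a unique molecular identifier (UMI) marks each captured mRNA. TWT carried intact alleles (IL6+/+, mDia1+/+, miR146a+/+). IL6 KO lacked IL6 alone (IL6-/-, mDia1+/+, miR146a+/+). DKO lacked the formin mDia1 and the microRNA miR146a (IL6+/+, mDia1-/-, miR146a-/-), and TKO lacked all 3 (IL6-/-, mDia1-/-, miR146a-/-). The study uses DKO as a model of myelodysplastic syndrome that progresses to acute leukemia and asks what loss of IL-6 does to it. The number of mice behind each library was not found in the labels or methods. With 1 library per genotype no difference between genotypes could be tested, so every interval below is an exact 95% interval of counting error only.

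Complement is a cascade of plasma proteins that tags microbes and dying cells for removal. In the classical pathway C1q, built of A, B and C chains, binds antibody or cell debris and starts the cascade. All routes meet at C3, whose fragments coat the target. Factor B and properdin belong to the alternative pathway, in which factor B forms the C3-cleaving enzyme and properdin stabilizes it. The fragments C3a and C5a act on leukocytes through the receptors C3aR and C5aR1. Most complement proteins in plasma come from liver, whereas C1q is made mainly by macrophages, monocytes and dendritic cells, and properdin largely by leukocytes.

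A cell was kept with 500 to 4000 genes and a mitochondrial share of up to 15%, which left 6794 cells in TWT, 7476 in IL6 KO, 9627 in DKO and 7560 in TKO. Median UMIs per kept cell were between 4585.5 and 4795 in TWT, IL6 KO and TKO, and 7053 in DKO. Between 19 and 36 barcodes were shared by each pair of libraries, at most 0.399% of the smaller one. Over all barcodes Diaph1, which encodes mDia1, was at 163 CPM (UMI counts scaled to a common library total) in TWT, 178 in IL6 KO, 11.4 in DKO and 12.4 in TKO. Il6 UMIs numbered 52 in TWT and 20 in DKO but 606 and 587 in the libraries labelled IL6 KO and TKO, which goes against a loss of the transcript. The deleted piece of Il6 is named in neither labels nor methods, and a 3′ tag outside it checks nothing. IL6 KO and TKO therefore stand below for the libraries so labelled. Cells were placed in 15 classes by their summed marker UMIs, and the complement genes were not among the markers.

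The 3 C1q chain genes lie next to each other on GRCm38 chromosome 4, all on the minus strand. C1qb spans 136880129 to 136886187, C1qc 136889804 to 136893065 and C1qa 136895917 to 136898803, so that the cluster covers 18675 bases, with gaps of 3616 and 2851 bases. Since these genes were high together, the DNA upstream of C1qb and C1qc is shown as an example of what lies at their starts. The sequences come from RefSeq (GRCm38.p6), whose promoter table held 6 of the 8 genes, and only bases outside annotated exons are printed. The motif searched, on both strands, was GAGGAA, the core of the site for PU.1, a transcription factor of the myeloid lineage. Its letters, in capitals, stood 30 bases before the RefSeq start of C1qb and, as TTCCTC on the opposite strand, 193 bases before that of C1qc. The same letters were found in 23.3% of 32851 promoter windows of 250 bases, so a match is only a description.
C1qb, chr4:136886201-136886450, minus strand: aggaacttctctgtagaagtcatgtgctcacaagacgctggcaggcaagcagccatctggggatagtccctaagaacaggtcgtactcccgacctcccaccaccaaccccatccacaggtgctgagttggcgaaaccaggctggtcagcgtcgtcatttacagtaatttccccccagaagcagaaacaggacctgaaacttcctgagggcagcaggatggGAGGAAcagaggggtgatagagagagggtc
C1qc, chr4:136893066-136893164, minus strand: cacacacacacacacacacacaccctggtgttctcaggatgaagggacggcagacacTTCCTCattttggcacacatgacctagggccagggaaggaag

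In the marrow as a whole, RNA of the 3 C1q chains was far more abundant in DKO than in the other libraries. C1qa was at 7.08 CPM in TWT, 3.40 in IL6 KO, 150 in DKO and 4.28 in TKO. C1qb was at 7.38, 3.84, 213 and 5.96 CPM in the same order. C1qc was at 5.09, 2.45, 117 and 3.77 CPM. No interval of DKO came near those of the other libraries, and IL6 KO was the lowest for each chain. DKO was thus 21.2-fold above TWT for C1qa (18.9 to 23.8), 28.9-fold for C1qb (25.8 to 32.4) and 23.0-fold for C1qc (20.1 to 26.4). Against TKO the folds were 35 (30.5 to 40.4), 35.7 (31.8 to 40.3) and 31 (26.8 to 36.1). IL6 KO was 2.02-fold below TWT for the chains summed (1.80 to 2.26) and TKO 1.40-fold below (1.26 to 1.55). This gives the size of differences outside DKO over all cells only, as single classes could differ more.

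Differences were read by size: a gene counted as called when 2 libraries were 2-fold or more apart, the higher one had 50 CPM or more, and their UMIs added up to 30 or more. A gene that met both minima counted as measured. By this rule the C1q chains were called in DKO against TWT, 3 of the 6 members measured. Of all measured genes 12.0% were called there in either direction. The same 3 were called against TKO, beside 11.2% of genes. In IL6 KO against TWT and in TKO against TWT only C3, Cfp and C5ar1 were measured. None of them was called (0.453% and 0.887% of genes). The other members were too low in these libraries to be called. The C1q chains reached the minimum of 50 CPM only through DKO, and a gene that does so has to differ, so these counts describe the libraries and lend no further weight to the folds.

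**Figure D1:**
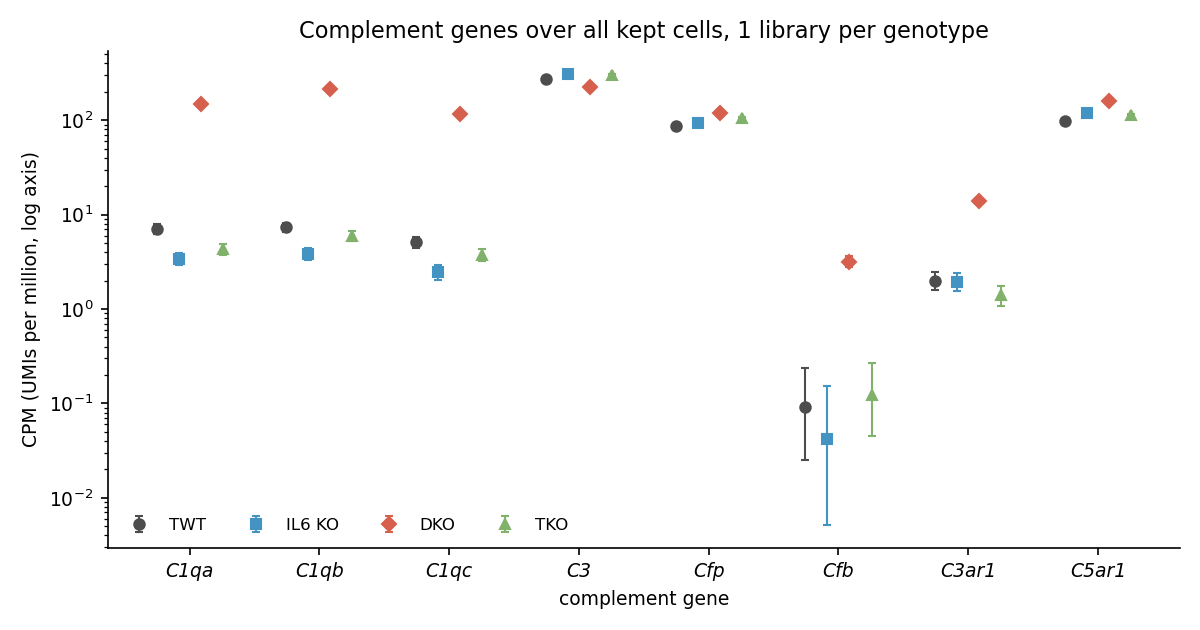
CPM of each complement gene over all kept cells (log axis) in the 4 libraries, with exact Poisson 95% intervals, 1 point per library. The C1q chains, Cfb and C3ar1 were highest in DKO by a wide margin, whereas C3, Cfp and C5ar1 lay within 2-fold of TWT in every library.

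By cell class, macrophage-like cells had the highest C1q level in every library. They held 49.8% of the C1q UMIs of TWT, 51.9% in IL6 KO and 42.5% in TKO, and classical monocyte-like cells 20.2%, 2.18% and 23.1%. The 3 chains summed were at 3995 CPM in macrophage-like cells of TWT (55 cells), 3462 in IL6 KO (41 cells), 10431 in DKO (46 cells) and 2967 in TKO (58 cells). DKO was 2.61-fold above TWT (2.36 to 2.90) and 3.52-fold above TKO (3.12 to 3.98). The class differed in kind between libraries. In TWT its markers Vcam1, an adhesion molecule of marrow macrophages, and Slc40a1, the iron exporter ferroportin, were at 1499 and 1917 CPM, but at 34.1 and 37.5 CPM in DKO. In DKO none of its own markers stood among the 10 genes of highest fold, 43.5% of its cells lay near the border of another class, and its median UMI count was 6428.5 against 1563 in TWT. Neutrophil RNA differed as well. The median over cells of the 8 mature neutrophil markers summed was 9685 CPM in TWT, 12275 in IL6 KO, 260 in DKO and 14080 in TKO, against 2421, 2354, 1187 and 1965 CPM for the 10 macrophage markers. Outside DKO the class thus carried more mature neutrophil than macrophage marker RNA, and its part in the folds of this class was not tested.

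Most of the added C1q RNA of DKO was in monocyte-like cells. Non-classical monocyte-like cells, which patrol vessel walls, held 0 C1q UMIs in 38 cells of TWT and 0 in 63 cells of IL6 KO. Their C1q chains summed were at 2615 CPM in 1717 cells of DKO and 101 CPM in 108 cells of TKO. DKO was at least 126-fold higher than TWT, taking 3 UMIs as the limit of a count of 0, and 25.8-fold higher than TKO (18.4 to 37.2). The single chains in DKO were at 805 CPM for C1qa, 1114 for C1qb and 696 for C1qc. In classical monocyte-like cells, which enter inflamed tissue, the sum was 34.1 CPM in TWT (563 cells), 2.24 in IL6 KO (527), 458 in DKO (1869) and 29.7 in TKO (608). DKO was 13.4-fold above TWT (11.5 to 15.7) and 15.4-fold above TKO (13.2 to 18.1). TWT and IL6 KO, at 34.1 and 2.24 CPM, were no closer to each other in this class than DKO and TWT. The values outside DKO rested on few cells, since only 26 classical monocyte-like cells of TWT and 12 of TKO had any C1q UMI.

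**Figure D2:**
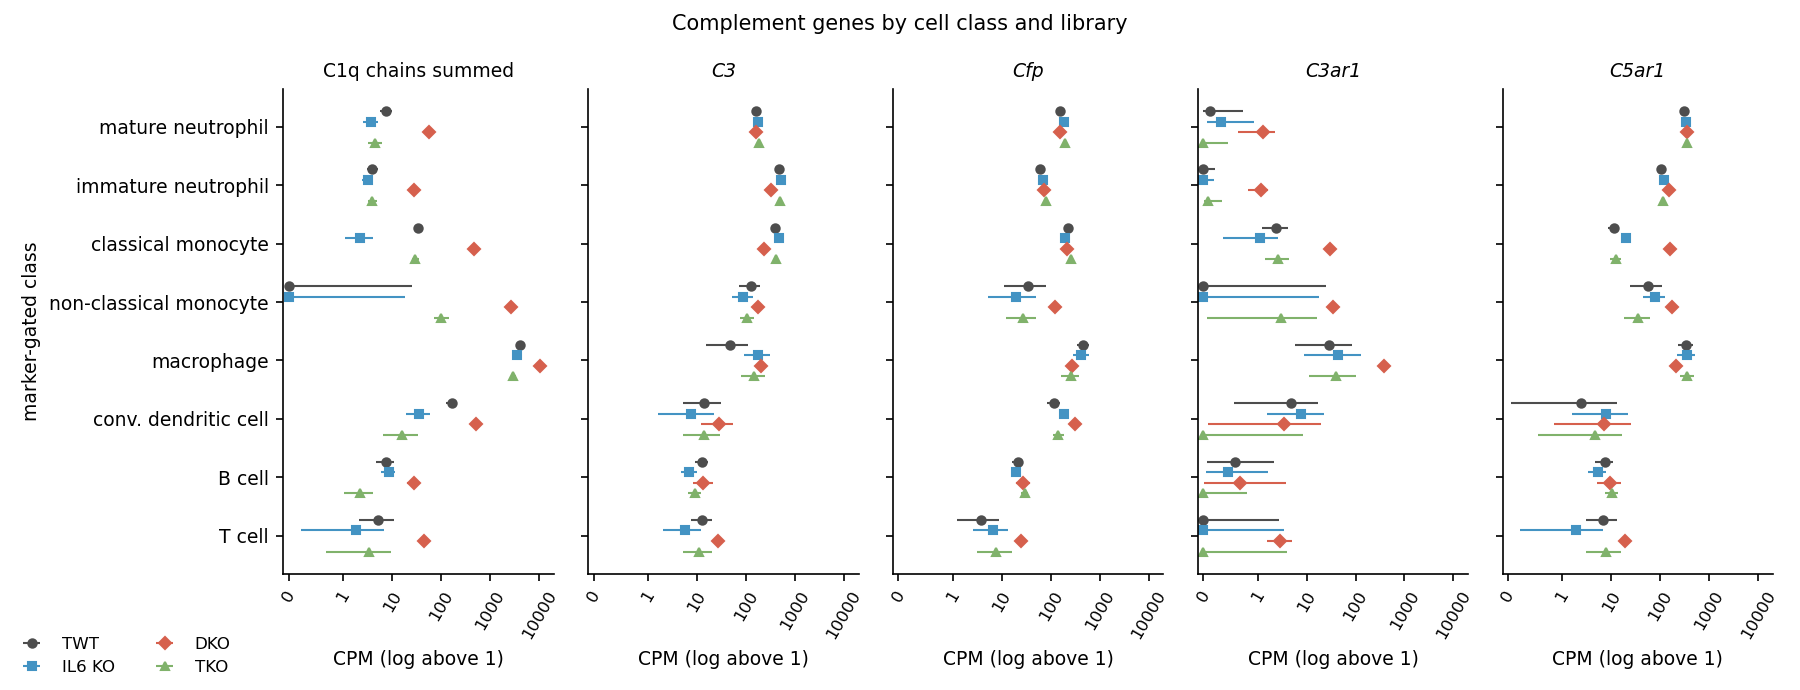
CPM (linear from 0 to 1, log above 1) of the 3 C1q chains summed, C3, Cfp, C3ar1 and C5ar1 in 8 marker-gated classes, with exact Poisson 95% intervals, 1 point per library. C1q was highest in macrophage-like cells of every library, and in DKO also reached 2615 CPM in non-classical and 458 in classical monocyte-like cells, where C5ar1 of classical cells was also highest.

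Among the 8 genes, C1qa, C1qb, C1qc and C5ar1 were called higher in classical monocyte-like cells of DKO, against TWT (12.0% of genes called) and against TKO (13.5%). Neither of the 2 measured there was called in IL6 KO against TWT (0.850%). In non-classical cells the C1q chains, Cfp and C5ar1 were called higher in DKO against TWT (19.6% of genes) and TKO (12.1%). In IL6 KO against TWT only C3 was measured in this class, and it was not called (6.84%). In macrophage-like cells the C1q chains, C3 and C3ar1 were called higher in DKO against TWT, where 33.1% of genes were called. The same genes without C3 were called against TKO (47.6% of genes), and none of the 5 measured in IL6 KO against TWT (8.07%). The call of C3 there rested on 5 UMIs in TWT and was lost without cells near a border, and those of C1qa and C1qc were lost with a filter of 200 genes alone. When cells were clustered within each library, no cluster of DKO was macrophage-like. In mature neutrophil-like cells only C3, Cfp and C5ar1 were measured. None of them was called in DKO against TWT (14.4% of genes), DKO against TKO (15.3%) or IL6 KO against TWT (0.577%). As over all cells, some genes called in DKO reached the minimum of 50 CPM only through DKO. In classical cells these were the C1q chains and C5ar1. In non-classical cells they were Cfp and the C1q chains against TWT, and Cfp, C5ar1, C1qa and C1qc against TKO. In macrophage-like cells they were C3ar1 and, against TWT, C3. Their calls describe the libraries and lend no further weight to the folds.

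RNA freed from broken cells reaches every droplet, so the level in lymphocytes, which do not make C1q, was taken as background. In DKO the C1q sum was at 44.2 CPM in T cell-like cells (38.3 to 50.8) and 27.6 in B cell-like cells (19.8 to 37.5), against 5.25 and 7.32 CPM in TWT. Mature neutrophil-like cells of DKO, at 55.5 CPM (50.6 to 60.8), and immature ones, at 27.6 (25.6 to 29.6), lay near that background and are not read as expression. Shares of cells were compared after each cell was thinned to 2000 UMIs. A C1q UMI was then found in 29.6% of non-classical and 10.9% of classical monocyte-like cells of DKO, against 5.59% of T cell-like and 4.67% of B cell-like cells. Unthinned shares were 32.4%, 20.3%, 8.98% and 7.35%, at median depths of 3988, 9635, 3792 and 2693.5 UMIs per cell. In TWT 1.98% of thinned classical monocyte-like cells had one, and in TKO 1.17%.

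The distribution over cells was uneven. In DKO 70.4% of the 1568 thinned non-classical cells had no C1q UMI, 5.04% had 1, 5.61% had 2 to 4 and 18.9% (17 to 21) had 5 or more, with a maximum of 75. In T cell-like cells of DKO 5.14% had 1 and 0.223% had 5 or more. Cells with 5 or more made up 5.25% (4.28 to 6.37) of classical monocyte-like cells in DKO, 0.360% in TWT and 1.0% in TKO, where they were 2 and 6 cells. All 3 chains were found in 17.6% of the non-classical cells of DKO. Of the cells with C1qa, 86.5% also had C1qb, as did 6.09% of those without C1qa. In T cell-like cells of DKO only 2 of 18 cells with C1qa had C1qb.

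**Figure D3:**
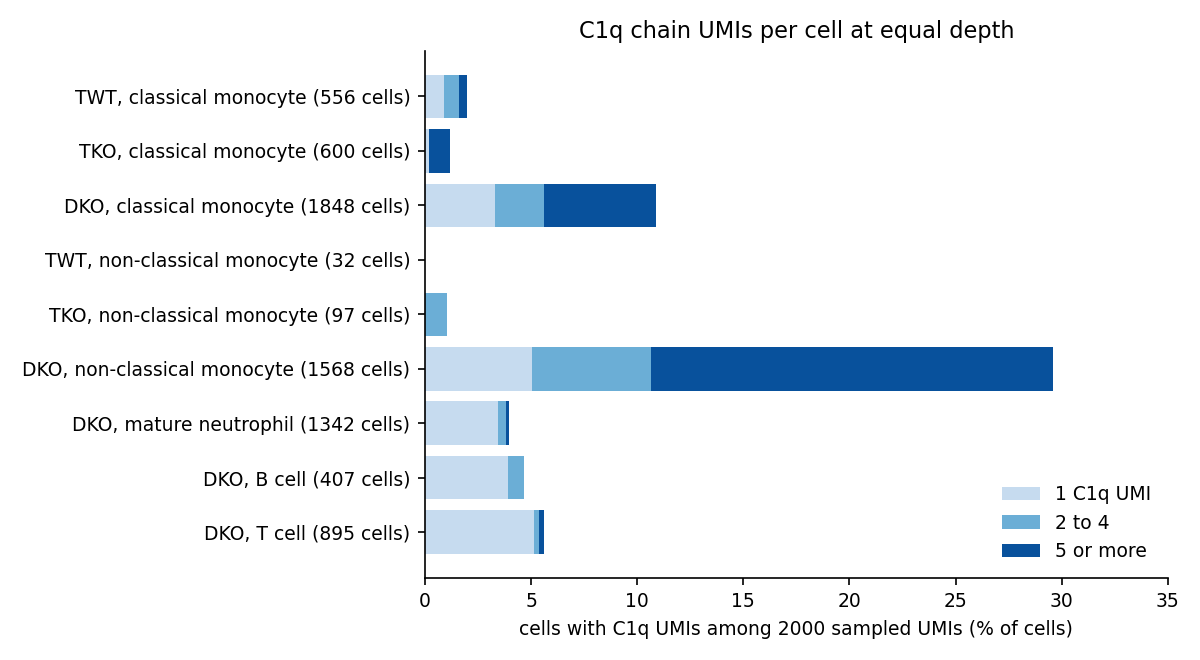
Share of cells with 1, 2 to 4, or 5 or more C1q chain UMIs among 2000 sampled UMIs, by library and class, with the number of cells in brackets. Cells with 5 or more made up 18.9% of DKO non-classical and 5.25% of DKO classical monocyte-like cells. Most lymphocytes and mature neutrophils of DKO held none, and those with any mostly held 1.

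DKO also had more monocyte-like cells, so the difference in the marrow total combines levels within classes with class sizes. Non-classical monocyte-like cells were 17.8% of kept cells in DKO and 0.559% in TWT, and classical ones 19.4% and 8.29%. They gave 61.0% and 23.2% of the C1q UMIs of DKO, and macrophage-like cells 8.32%, against 49.8% from macrophage-like cells in TWT. Classes were weighted here by their share of library UMIs, which also depends on depth per cell. Non-classical cells held 11.2% of UMIs in DKO and 0.334% in TWT, and classical ones 24.3% and 11.6%. With the levels of DKO and these class shares of TWT the sum would have been 6.56-fold above TWT, in place of 24.6 as measured (22.9 to 26.3). With the levels of TWT and the class shares of DKO it would have been 1.40-fold. Against TKO the same values were 9.0 and 2.44, where 34.3 was measured (31.8 to 37.0).

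The chains stood in similar but not equal ratio. In non-classical cells of DKO C1qa made up 30.8%, C1qb 42.6% and C1qc 26.6% of 22436 C1q UMIs. In classical cells of DKO the shares were 32.2%, 48.5% and 19.2% of 8510, with a lower share of C1qc (18.4 to 20.1 against 26 to 27.2). T cell-like cells of DKO, at 31.2%, 48.2% and 20.6% of 199 UMIs, overlapped with both monocyte classes in their intervals. In macrophage-like cells of TWT C1qb had a lower share than in either monocyte class of DKO, at 32.5% (28.1 to 37.2). In macrophage-like cells of DKO its share was 41.8% (40.1 to 43.6), which overlapped with non-classical cells of DKO in its interval. The low share in TWT is thus not shown to belong to the class. The 3′ counts of different genes depend on capture, so the shares are compared between classes and libraries and not between chains.

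Non-classical monocyte-like cells of DKO with and without C1q RNA differed in the other complement genes. In the 385 cells with at least 2 C1q UMIs among 2000, C3 was detected in 3.90% (2.20 to 6.34), against 32.5% (29.9 to 35.3) of the 1183 cells with fewer. C5ar1 was detected in 4.42% (2.59 to 6.98) against 32.2% (29.5 to 35). C3ar1 ran the other way, at 14.3% (10.9 to 18.2) against 0.507% (0.186 to 1.10), whereas Cfp, at 23.4% and 19.0%, overlapped in its intervals. Cells with C1q RNA thus had C3ar1 detected more often, and C3 and C5ar1 less often, than the other cells of the class. Marker RNA of other cell types moved with this split, and its part was not tested. The immature neutrophil markers summed to 2839 against 7028 CPM, those of mature neutrophils to 620 against 934, of B cells to 219 against 41.1 and of stromal or endothelial cells to 348 against 84.7. Called doublets made up 1.56% and 0.254% of these cells.

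In classical monocyte-like cells of DKO the 140 cells with C1q RNA had C3ar1 in 30.7% (23.2 to 39.1) against 3.34% (2.54 to 4.30) of the 1708 others. C5ar1 was here more frequent with C1q, at 42.9% (34.5 to 51.5) against 26.7% (24.6 to 28.9), opposite to the non-classical cells. C3 was at 26.4% (19.3 to 34.5) against 36.7% (34.4 to 39.0). Of C3, Cfp, C5ar1 and C3ar1, only C3ar1 was higher with C1q RNA in both classes beyond the intervals.

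**Figure D4:**
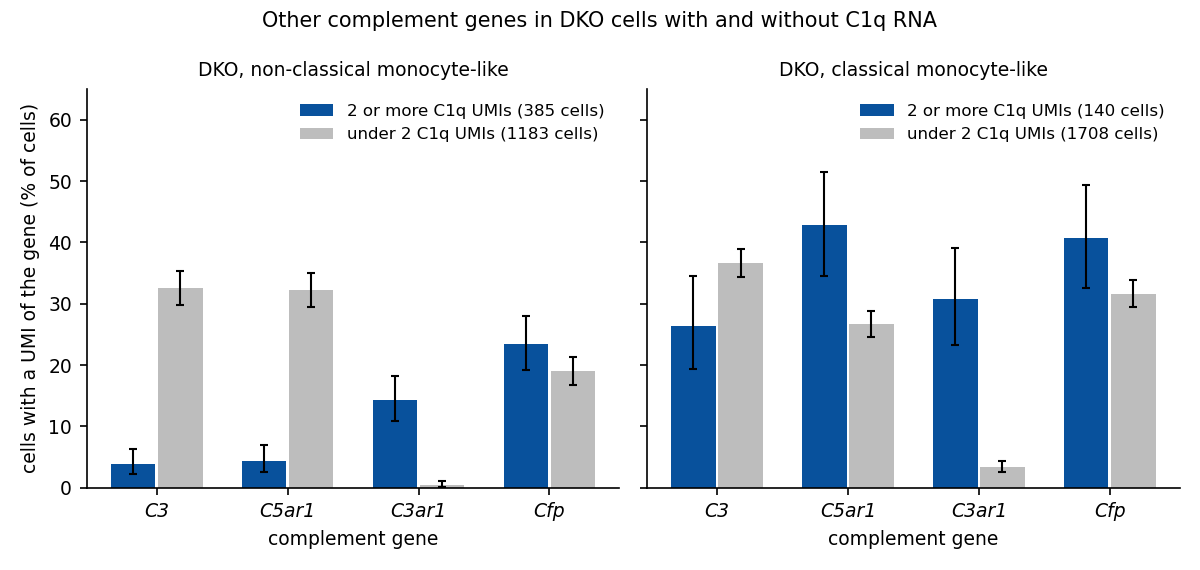
Share of DKO cells with a UMI of C3, C5ar1, C3ar1 or Cfp after thinning to 2000 UMIs, in cells with 2 or more C1q UMIs (blue) and under 2 (grey), with exact Clopper-Pearson 95% intervals. In non-classical monocyte-like cells C3 and C5ar1 were at 3.90% and 4.42% with C1q RNA and above 30% without, and C3ar1 at 14.3% against 0.507%.

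These cells were split by C1q itself, so genes that differed between them are given as a description. In the non-classical class the non-complement gene with the highest ratio in cells with C1q RNA was Cxcl13, a chemokine that draws B cells, at 4002 CPM against 7.73. Next came Lipg, an endothelial-type lipase, at 918 against 12.3 CPM, and Cd72, a lectin known from B cells, at 706 against 19.4. The genes lower in them included Plac8 (102 against 1775 CPM), Hp, which encodes haptoglobin (222 against 2774), and Ace (10.0 against 300). Ace, the angiotensin-converting enzyme, is a marker of the class, as is Treml4, at 62.3 against 419 CPM, whereas the marker Fabp4, a fatty acid-binding protein, was at 1880 against 267. The 10 macrophage markers summed to 675 against 208 CPM, with Vcam1, Slc40a1, Cd163, Mrc1, Mertk and Siglec1 under 10 CPM in both. Axl (194 against 2.96 CPM), Cd5l (46.6 against 0.164), Spic (82.7 against 21.0) and Adgre1 (338 against 175) were higher with C1q RNA. Axl and Cd5l were at 0 CPM in non-classical cells of TWT, IL6 KO and TKO. So the cells with C1q RNA carried some markers of the class and some of macrophages, and were low in others of both lists. Among classical monocyte-like cells the genes with the highest ratio were the MHC class II genes H2-Eb1 (3787 against 150 CPM) and H2-Aa (4448 against 206). The lower genes were led by Ly6c2, a marker of the class, at 108 against 926 CPM, and included Vcan (40.3 against 341) and Chil3 (1787 against 9470). The classical monocyte markers summed to 5401 against 6027 CPM and the macrophage markers to 304 against 133.

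C3, the central component, was at 274 CPM in TWT, 309 in IL6 KO, 224 in DKO and 305 in TKO over all cells. DKO was the lowest, 1.23-fold below TWT (1.2 to 1.26) and 1.36-fold below TKO (1.34 to 1.40). Apart from 31 stromal or endothelial cell-like cells of DKO at 401 CPM, the classes with the highest level were immature neutrophil-like and classical monocyte-like cells. In immature neutrophil-like cells C3 was at 471 CPM in TWT, 527 in IL6 KO, 320 in DKO and 498 in TKO. Classical monocyte-like cells had 387, 476, 233 and 404 CPM in that order, DKO being 1.66-fold below TWT (1.57 to 1.75). Granulocyte-monocyte progenitor-like cells had 284, 293, 105 and 219 CPM, the largest of these differences, at 2.69-fold below TWT (2.38 to 3.05). Mature neutrophil-like cells had 164, 176, 161 and 188 CPM, where DKO and TWT overlapped in their intervals. In B cell-like cells C3 lay between 6.85 and 13.5 CPM. DKO was thus lower in the progenitor, immature neutrophil and classical monocyte classes, where TKO stayed within 1.3-fold of TWT, and non-classical cells of DKO, at 174 CPM, were not below the 125 of TWT.

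Cfp, which encodes properdin and lies on the X chromosome, was at 86.1 CPM in TWT, 92.5 in IL6 KO, 119 in DKO and 106 in TKO. Xist UMIs numbered 49030 in IL6 KO and at most 7 in the other libraries, so that 1 library was female, and its Cfp level lay between those of the male libraries. Classical monocyte-like cells had Cfp at 227, 198, 213 and 256 CPM, and in mature neutrophil-like cells at 154, 189, 157 and 191 CPM, all within 1.3-fold. In non-classical cells DKO stood apart, at 125 CPM against 34.6 in TWT, 19.4 in IL6 KO and 26.8 in TKO. The fold to TWT was 3.60 (1.54 to 11.1), on 5 UMIs in TWT, and to TKO 4.64 (2.44 to 10.2), on 9 UMIs. T cell-like cells of the same libraries, taken as background, had 3.75 CPM in TWT, 6.51 in IL6 KO, 24.9 in DKO and 7.70 in TKO. In conventional dendritic cell-like cells Cfp was at 116, 186, 309 and 143 CPM, with 30 cells in DKO.

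Cfb, which encodes factor B, was rare. Over all cells 4 UMIs were counted in TWT, 2 in IL6 KO, 244 in DKO and 6 in TKO, which is 0.0926, 0.0422, 3.19 and 0.123 CPM. DKO was 34.4-fold above TWT (13.3 to 127) and 25.9-fold above TKO (11.7 to 71.3), below the minimum level of the size rule. Of the DKO UMIs 138 were in classical and 64 in non-classical monocyte-like cells, at 7.43 and 7.46 CPM, against 1.33 CPM in T cell-like cells. In the other libraries 10 of the 12 Cfb UMIs were in classical monocyte-like cells. In non-classical cells of DKO Cfb was detected in 1.56% of those with C1q RNA (0.574 to 3.36) and 1.44% of those without (0.839 to 2.29), with no difference beyond the intervals.

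C3ar1, the receptor of C3a, was at 1.99 CPM in TWT, 1.94 in IL6 KO, 14.1 in DKO and 1.39 in TKO over all cells. The cells that held it differed. Basophil or mast cell-like cells held 65 of the 86 UMIs of TWT, 73 of 92 in IL6 KO and 46 of 68 in TKO, at 142, 150 and 85.8 CPM, and DKO had 4 such cells with 0 UMIs. In DKO 557 of 1076 UMIs were in classical monocyte-like cells, at 29.97 CPM, against 2.39 in TWT, 1.12 in IL6 KO and 2.63 in TKO. The fold was 12.5 to TWT (7.12 to 24.4) and 11.4 to TKO (6.73 to 21.0). Non-classical cells of DKO had 34.7 CPM, with 0 UMIs in TWT and IL6 KO and 1 in TKO. Macrophage-like cells of DKO had 385 CPM against 28.5 in TWT, 43.6 in IL6 KO and 40.8 in TKO, where 3, 3 and 4 UMIs were counted. DKO thus had more C3ar1 in monocyte- and macrophage-like cells, and the basophil or mast cell-like cells that held it elsewhere were almost absent.

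C5ar1, the receptor of C5a that draws neutrophils to inflamed sites, was at 99.2 CPM in TWT, 120 in IL6 KO, 160 in DKO and 114 in TKO over all cells. In mature neutrophil-like cells it was at 301, 331, 355 and 348 CPM, within 1.2-fold of TWT. The largest difference was in classical monocyte-like cells, at 11.2 CPM in TWT, 20.1 in IL6 KO, 161 in DKO and 12.4 in TKO. DKO was 14.4-fold above TWT (11.1 to 19.1) and 12.9-fold above TKO (10.1 to 16.8). After thinning 27.9% of these cells in DKO had a C5ar1 UMI, against 2.34% in TWT, 4.78% in IL6 KO, 2.33% in TKO and 1.34% of T cell-like cells of DKO. C5ar1 was therefore spread over many more classical cells than C1q was.

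Since neutrophils are the main source of C5ar1, other neutrophil RNA was measured beside it. In classical monocyte-like cells of DKO C5ar1 stood at 45.3% of its level in mature neutrophil-like cells. The neutrophil genes Cxcr2, Retnlg and Stfa2l1 stood at 1.29%, 0.646% and 0.730% of theirs, and S100a8 at 4.67%. In TWT the value was 3.70% for C5ar1 and 0.536% for Cxcr2. Of these 5 genes, C5ar1 alone stood above 5% of its neutrophil level. The 8 immature neutrophil markers summed to 2933 CPM in TWT, 5983 in IL6 KO, 11922 in DKO and 3531 in TKO in these cells. Of the 8, Chil3 (1120, 3848, 8951 and 1679 CPM), Lcn2 (247, 326, 1246 and 327), Ltb4r1 (150, 159, 422 and 191) and Mmp8 (149, 157, 242 and 183) were highest in DKO. Camp (578, 660, 523 and 465 CPM), Ngp (387, 467, 358 and 387), Ltf (119, 170, 113 and 144) and Cd177 (183, 195, 68.5 and 157) were not. Chil3 gave most of the sum of DKO, and the part of these markers in the C5ar1 level was not tested. In non-classical cells C5ar1 was at 55.4 CPM in TWT, 77.8 in IL6 KO, 169 in DKO and 35.8 in TKO. The values outside DKO came from only 38, 63 and 108 cells. S100a8 was at 21068, 6678, 4609 and 740 CPM in non-classical cells of the 4 libraries, and its part in these C5ar1 levels was not tested. Macrophage-like cells had 332, 349, 205 and 357 CPM, DKO being 1.62-fold below TWT (1.04 to 2.50). The neutrophil genes Cxcr2, at 788, 1222, 17.1 and 1927 CPM, and S100a8, at 27541, 30502, 4414 and 27484 CPM, were also lowest in DKO in this class, and their part in the C5ar1 level was not tested.

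Along the range from classical to non-classical markers in DKO, the members went in different directions. Cells of both classes were binned by the non-classical share of their monocyte marker UMIs. From the lowest to the highest of 5 bins the C1q sum was at 459, 701, 1927, 4138 and 4151 CPM, in 1859, 297, 556, 658 and 216 cells. C3 was at 233, 230, 206, 134 and 82.5 CPM, and Cfp at 214, 141, 123, 120 and 96.0. C5ar1 was at 160, 240, 195, 129 and 76.3 CPM, and C3ar1 at 29.96, 25.5, 21.2, 49.6 and 49.2. C1q was thus highest in the bins of high non-classical share, whereas C3, Cfp and C5ar1 were lowest in the highest bin. The share is a sum over markers that differed in direction. In non-classical cells of DKO, Fabp4 (1880 against 267 CPM) and Cd300e (533 against 232) were higher with C1q RNA. The other markers of the class were lower with it, as Ace (10.0 against 300), Treml4 (62.3 against 419) and Cd36 (16.1 against 153). So the rise over bins is not a rise with each marker, and the part of Fabp4 in it was not tested. In TKO the C1q sum was 29.7 CPM in the lowest bin and 194 and 235 in the highest 2, on 21 and 13 UMIs, and 0 of 131656 UMIs in the middle bin.

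**Figure D5:**
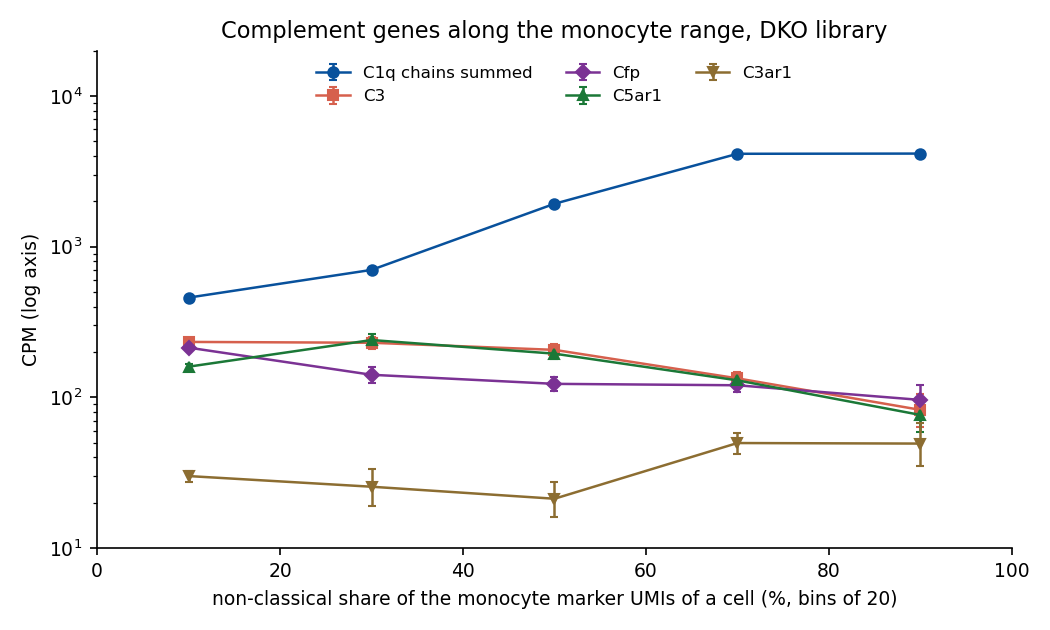
CPM (log axis) of the C1q chains summed, C3, Cfp, C5ar1 and C3ar1 in DKO monocyte-like cells, by the non-classical share of their monocyte marker UMIs in 5 bins of 20%, with exact Poisson 95% intervals. C1q was at 459 CPM in the lowest and 4151 in the highest bin, and C3, Cfp and C5ar1 were lowest in the highest bin.

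Of 49 other complement genes in the matrices, most were too low to measure in marrow. Only 8 passed the minimum over all cells in DKO or TWT, and 1 was called higher and 1 lower, beside 12.0% of all measured genes called. Lrp1, a scavenger receptor that takes up many ligands, was at 24.8 CPM in TWT, 14.1 in IL6 KO, 135 in DKO and 20.1 in TKO. Classical monocyte-like cells held 85.5% of its UMIs in TWT and 53.1% in DKO. They made up 8.29% and 19.4% of cells, and within them Lrp1 was not called between these libraries. Cd55, which speeds the decay of C3-cleaving enzymes on the cell surface, was at 51.1, 43.3, 24.3 and 51.3 CPM, or 2.10-fold below TWT in DKO. In TWT 55.5% of Cd55 UMIs were from B cell-like cells, a class that made up 16.4% of cells in TWT and 4.94% in DKO. The other 6 measured genes, among them Fcnb, the ficolin of neutrophil precursors (362, 328, 208 and 390 CPM), and Itgam and Itgb2, the subunits of complement receptor 3, were not called. None of the terminal components (7 genes) or soluble regulators (9 genes) was measured over all cells, and 11 of the 49 genes had 0 or 1 UMI in every library.

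Other components and regulators differed at low levels, below the size rule. C4b, which encodes C4, was at 1.13 CPM in TWT, 0.803 in IL6 KO, 3.98 in DKO and 0.430 in TKO, and in DKO 128 of its 305 UMIs were in classical monocyte-like cells, against 8 of 49 in TWT. C5ar2, the second receptor of C5a, was lower in DKO, at 16.5, 18.1, 6.65 and 17.8 CPM, opposite to C5ar1. In mature neutrophil-like cells C5ar2 was called lower in DKO against TWT (14.4% of genes called) and TKO (15.3%). Cr2, the B cell receptor of C3 fragments, was at 8.61, 7.27, 2.02 and 9.82 CPM, and 90.1% of its UMIs in TWT were in B cell-like cells. Cd59a, which blocks the membrane attack complex, had 168 UMIs in TWT and 103 in TKO but 7 in IL6 KO and 7 in DKO. Erythroid cell-like cells held 68 of the UMIs in TWT and 84 in TKO, and numbered 138 in TWT, 101 in IL6 KO, 14 in DKO and 157 in TKO. The Cd59a level within this class differed as well, at 68.2, 6.11, 0 and 61.9 CPM in that order. Plasma cell-like cells held a further 61 UMIs in TWT. In classical monocyte-like cells none of the 8 measured others was called in DKO against TWT (12.0% of genes), and Lrp1 was called higher against TKO (13.5%). In macrophage-like cells C4b and Lrp1 were called higher and Fcna lower in DKO against TWT, where 33.1% of genes were called.

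The genes with the most similar pattern were sought over 46 library-by-class points of at least 50 cells, among 10083 genes, as a description. The points share libraries and the RNA of the same cells. The C1q sum was most like Nr1h3, which encodes the oxysterol receptor LXRα (Pearson r = 0.88), Ms4a7 (0.86) and Pmp22 (0.81). C3 was most like Prdx5 (0.92), Hp (0.89) and Clec4a2 (0.88), and Cfp like Skap2 (0.92), Borcs6 (0.89) and Ifngr2 (0.87). C5ar1 was most like Lpcat2 (0.92), Slc16a3 (0.91) and Pygl (0.90). C3ar1 had weaker neighbours in Camk1 (0.80), Ltc4s (0.76) and Coq8b (0.75). For Cfb, at most 7.46 CPM in any point, Fabp7, Spink2 and F11r came first. Among the members themselves the C1q chains were alike, with r of 0.95 to 0.96, and C3 and C1qa were not, with r = 0.13.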

How the data were processed

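The 4 libraries were made by the 10x Genomics 3′ v3 chemistry and sequenced on a DNBseq instrument. The authors deposited filtered matrices of raw UMI counts per gene and cell barcode, made with Cell Ranger (3.0.2 in the matrix headers) on mm10, and no normalization was applied to them. The libraries held 61292684 to 85145074 UMIs in 8423 to 10866 barcodes.

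Cells with 500 to 4000 detected genes and up to 15% mitochondrial UMIs were kept, limits the study's methods also state. Doublets called by Scrublet (1.64 to 2.47% of kept cells) stayed in. A cell was placed in 1 of 15 classes by comparing the summed UMIs of each of its marker lists (8 to 10 genes, 121 of 122 found) with the mean share of that list over the libraries. The class of the highest signed Poisson deviance was taken, with a minimum of 6 and of 2 marker UMIs. Between 137 and 393 cells per library stayed unassigned, and in 269 to 536 another class reached at least 0.5 of the deviance.

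UMIs were summed per library and class and given as CPM with exact Poisson intervals, folds with conditional binomial and shares with Clopper-Pearson intervals. Shares were taken after thinning each cell to 2000 UMIs, leaving shallower cells out. All intervals are at 95% and cover counting error only, and an absent gene was bounded by 3 UMIs. With 1 library per genotype no p-value was computed. The gates and folds were tested on simulated data.

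The genes named outside the 8 came first from a list of 58 complement genes (57 found). These were chiefly those past the size rule over all cells or in classical monocyte-like cells. Calls of listed genes in the other classes are not all given. Also named were the 3 genes most correlated with each member and those leading the split by C1q. C4b, C5ar2, Cr2 and Cd59a were named after their values were seen, and 1 gene of the list is not reported here. The members, marker and gene lists were chosen with earlier results of these data known. Alternatives changed the cell filter, doublets, border cells, class definition, scaling, pseudocount, minimum level and fold. Python 3.11.15, numpy 2.4.6, scipy 1.17.1, pandas 2.3.3 and scanpy 1.11.5 were used.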

Additional observations from a re-analysis of the deposited data

Results flagged for a closer look

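The C1q chains were also measured in barcodes that the filter on genes and mitochondrial UMIs had removed, which enter no comparison above. In the 1239 removed barcodes of DKO the 3 chains summed to 279.5 CPM (268 to 291), against 14.5 CPM in the 1629 removed barcodes of TWT, 13.3 in IL6 KO and 7.25 in TKO. Most of the DKO UMIs, 2067 of 2401, came from 275 barcodes with over 4000 genes, at 273 CPM against 1.14 in the 646 such barcodes of TWT. The removed barcodes with up to 4000 genes were at 329.5 CPM in DKO (295 to 367), 154 in TWT (137 to 173), 123 in IL6 KO and 77.2 in TKO.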

How the results depend on the processing

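Of 178 counts of called complement genes recomputed under the alternatives, 167 stayed within 1.5 times the count given and 11 moved. With no minimum on CPM or UMIs the count over all cells was 5 in DKO against TWT, 5 in DKO against TKO and 3 in IL6 KO against TWT. It was then 5 in classical monocyte-like and 1 in macrophage-like cells of IL6 KO against TWT. In mature neutrophil-like cells it was 5 in DKO against TWT, 5 in DKO against TKO and 3 in IL6 KO against TWT. With classes from clusters within each library it was 1 in non-classical (C3) and 4 in macrophage-like cells of IL6 KO against TWT. With a 3-fold rule it was 3 in macrophage-like cells of DKO against TWT. No cluster of DKO or TKO was macrophage-like, so that alternative gave no macrophage value for them. Of 1040 fold values of single genes, 270 were for called genes, and a reversal was looked for only in these. Of the 270, 0 reversed and 5 lost the call, all in macrophage-like cells of DKO against TWT. They were C1qa and C1qc with a filter of 200 genes alone and with the mean of each cell's CPM, and C3 without border cells. The causes were not tested. No paired analysis was possible because each genotype has 1 library. Depth limits Cfb everywhere, and C3ar1 and the C1q chains in the 38 to 108 non-classical cells of the libraries other than DKO.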
